A study of Mus musculus with 15 samples.

Results

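Expression of 8 genes of the bile duct epithelium and of the simple epithelial keratins was examined in mouse liver. They were the keratin genes Krt7, Krt8, Krt18, Krt19 and Krt23, the adhesion molecule gene Epcam, the transcription factor gene Sox9 and the chloride channel gene Cftr. The members were taken by name from a table of 37991 genes, and all 8 passed the filter on low counts that left 14258 genes for testing. RNA sequencing of whole liver was carried out on 15 libraries in 3 groups of 5. Young WT mice carried functional S6K1 (gene symbol Rps6kb1) and were 90 days old, old WT mice had the same genotype and were 600 days old, and old KO mice lacked S6K1 and were also 600 days old. By the study's methods all were female C57BL/6 mice on chow from heterozygous breeding, the deletion was in every tissue and not in the liver alone, and the tissue was flash frozen before RNA was extracted. No young KO group was measured, so that an effect of genotype is known at 600 days only. Old WT against young WT was used to ask what changed with age, old KO against old WT to ask what changed with loss of S6K1 at old age, and old KO against young WT to place the knockout beside the young level. These comparisons share groups of libraries and are therefore not independent of each other.

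Keratins are intermediate filament proteins that assemble as pairs of a type I and a type II chain. Hepatocytes make a single pair, keratin 8 (type II, Krt8) with keratin 18 (type I, Krt18), whereas cholangiocytes, the epithelial cells of bile ducts, add keratin 7 (type II) and keratin 19 (type I). Sox9 specifies and marks duct cells, Epcam mediates adhesion between them, and Cftr secretes chloride into bile. Keratin 23 is a type I keratin known from ductular reactions in injured liver.

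Total counts lay between 21801754 and 38065359 per library, and every pair of libraries within a group differed beyond sampling noise. Rps6kb1 was at 33.3 to 45.4 CPM (counts scaled to a library of 1000000) in the WT libraries and at 15.2 to 20.8 CPM in the old KO libraries, so that each library had the level of its labelled genotype. Old WT 7 and old KO 6 were at the ends of the second principal component, which held 13.1% of the variance. Albumin (Alb), the defining hepatocyte product, lay between 59990 and 118200 CPM. A whole liver library mixes all cell types of the organ, and fewer cells of a type and less RNA per cell cannot be told apart in it.

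Krt8 and Krt18 are neighbours on chromosome 15 (NCBIM37, the build of the files). Krt8 (ENSMUSG00000049382) is on the minus strand from 101827142 to 101834773, and Krt18 (ENSMUSG00000023043) is on the plus strand from 101858647 to 101862457, so that they point away from each other across 23873 bases. Both are protein-coding, with 9 and 7 exon blocks. Krt7 (ENSMUSG00000023039) lies on the same chromosome from 101241474 to 101260744. Krt19 (ENSMUSG00000020911, from 100002124 to 100009979) and Krt23 (ENSMUSG00000006777, from 99339288 to 99354451) lie in the type I keratin region of chromosome 11, which also carries Sox9 (ENSMUSG00000000567) from 112643538 to 112649074. Epcam (ENSMUSG00000045394) is on chromosome 17 from 88035319 to 88050446, and Cftr (ENSMUSG00000041301) on chromosome 6 from 18120687 to 18272768.

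The promoters of the hepatocyte pair are shown because Krt8 and Krt18 were the abundant members and their levels moved together between livers. They are RefSeq sequences on GRCm38.p6, a later build than that of the counts, from 250 bases before the annotated start to 10 bases after it. Krt8 is at chr15:102004333-102004592 on the minus strand, and Krt18 at chr15:102027966-102028225 on the plus strand. Capitals mark the letters TATAA or their reverse complement.
Krt8: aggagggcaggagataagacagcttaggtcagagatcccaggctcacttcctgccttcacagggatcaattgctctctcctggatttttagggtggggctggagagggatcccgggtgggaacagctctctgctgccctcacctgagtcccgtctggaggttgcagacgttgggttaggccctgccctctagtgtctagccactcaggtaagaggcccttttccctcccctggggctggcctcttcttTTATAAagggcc
Krt18: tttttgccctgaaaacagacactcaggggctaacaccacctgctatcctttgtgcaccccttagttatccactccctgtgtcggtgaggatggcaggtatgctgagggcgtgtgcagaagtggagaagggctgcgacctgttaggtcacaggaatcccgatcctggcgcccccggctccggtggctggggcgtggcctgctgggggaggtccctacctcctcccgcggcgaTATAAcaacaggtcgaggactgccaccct
TATAA was searched on both strands from 250 bases before to 50 bases after the start, and 24.9% of the 32851 promoters in the RefSeq table held it. In Krt18 it began 19 bases before the start, and in Krt8 the overlapping matches on both strands began 1 and 2 bases before it. Neither promoter held GGGCGG on either strand, which 35.7% of all promoters did. CCAAT, found in 37.4%, was in neither of them as well. Of the other members, RefSeq entries were at hand for Krt7, Krt23, Epcam and Cftr, none of which held TATAA on either strand. The letters GGGCGG occurred 4 times in the Krt7 promoter, 6 times in that of Cftr and once in that of Epcam. A match is a description of the letters and not of a bound site.

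Stretches of the length of a read were nearly all unique in the other 7 transcripts. Of the 50-base windows of the Krt8 transcript, however, 54.5% also occurred without a mismatch at 1 other place, on chromosome 7 from 24142113 to 24143830 within the gene Nlrp4e. Nlrp4e itself had 0 counts in every library. How reads that fit both places were counted was not given in the sources used here, so the level of Krt8 may be understated. The share was 1.29% for Krt7, 0.74% for Krt18 and 0.02% for Sox9, and no such window was found for Krt19, Krt23, Epcam or Cftr. Cftr shares 129 bases of exon (1.66%) with an antisense transcript, Gm15592, whose reads could not be separated if strand was not used in counting.

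Per kilobase of exon, the hepatocyte pair was far above the duct genes. Over the 15 livers, Krt18 was at 81.7 ± 20.9 CPM per kb and Krt8 at 68.8 ± 11.9 CPM per kb (SD, n = 15). Krt23 followed at 1.63 ± 1.08, Sox9 at 1.16 ± 0.732, Epcam at 0.936 ± 0.444 and Krt19 at 0.601 ± 0.370 CPM per kb (SD, n = 15). Krt7 was at 0.119 ± 0.0447 and Cftr at 0.0376 ± 0.0242 CPM per kb (SD, n = 15). The steps from Krt8 to Krt23, from Krt19 to Krt7 and from Krt7 to Cftr held within each of the 15 livers. The neighbours between them did not keep their order, with Krt23 above Sox9 in 10 livers, Sox9 above Epcam in 10, Epcam above Krt19 in 13 and Krt18 above Krt8 in 13. The order was the same per kilobase of the transcript with the longest coding sequence. These depths gave 1773 to 6208 counts of Krt18 and 2040 to 4910 of Krt8 per library, but 3 to 19 of Cftr, 8 to 39 of Krt7 and 9 to 75 of Krt19.

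**Figure D1:**
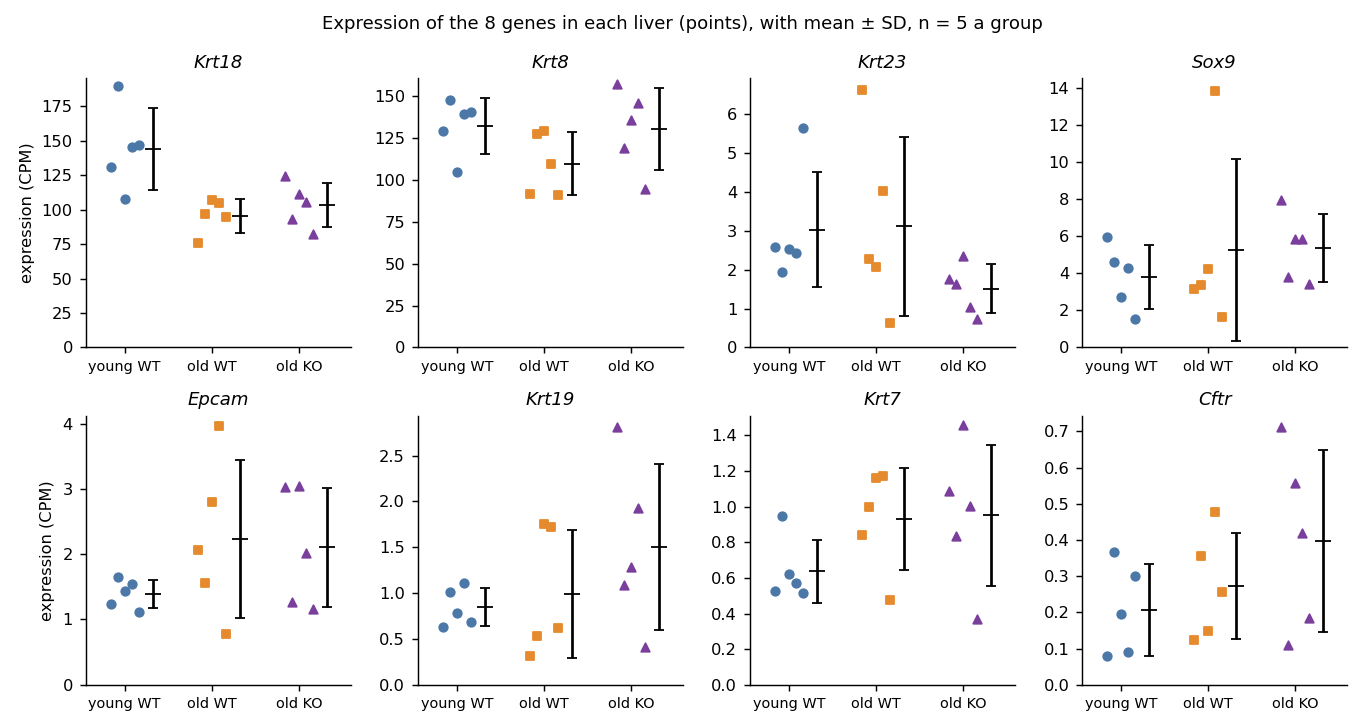
Expression of each gene (vertical axis, CPM, from 0) in the 15 livers, 1 point a liver, for young WT, old WT and old KO, with the mean ± SD (n = 5) as a bar beside each group. The Krt18 points of all 5 old WT livers lie below those of all 5 young WT livers, whereas the groups overlap for every other gene.

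Krt18 was the member that changed with age. The young livers 1, 2, 3, 4 and 6 had 130.7, 189.5, 107.8, 145.2 and 146.9 CPM of it. In old WT 1, 4, 5, 7 and 10 it was at 75.7, 96.5, 107.1, 104.6 and 94.3 CPM. All 5 old WT livers were below all 5 young WT livers, the nearest being old WT 5 and young WT 3, and no overlap was found for 11.4% of all genes tested. Mean expression was 144 ± 29.9 CPM in young WT and 95.7 ± 12.4 CPM in old WT (SD, n = 5). Its log2 fold change was -0.59 (SE 0.142, 95% interval -0.89 to -0.29, edgeR adjusted p 0.0099), or 0.664 of the young level. The exact 2-sided permutation test gave p 0.00794, the smallest possible with 5 against 5 livers. Of the 8 members this was the only call with age, 1 lower and 0 higher, where 8.91% of all genes tested were lower and 9.92% were higher. The call held in all 10 fits that each left out 1 of these livers (-0.67 to -0.47, adjusted p 0.0059 to 0.0292).

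Old KO livers also had less Krt18 than young WT livers. In old KO 1, 2, 4, 5 and 6 its expression was 124.2, 93.2, 111.5, 105.9 and 82.3 CPM. These values overlapped with those of old WT, and 3 of the 5 were below every young WT liver. Old KO (103.4 ± 16.2 CPM, SD, n = 5) differed from old WT by 0.11 on the log2 scale (SE 0.142, 95% interval -0.19 to 0.41, adjusted p 0.825), which did not pass the threshold. As compared to young WT the log2 fold change was -0.48 (SE 0.142, 95% interval -0.78 to -0.18, adjusted p 0.0238), again 1 member lower and 0 higher, where 11.3% of all genes were lower and 12.0% higher. Without young WT 2 this call was lost (-0.36, adjusted p 0.0678), as it was without old KO 2 (-0.44, adjusted p 0.0538) or old KO 6 (-0.41, adjusted p 0.0536).

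Krt8, which encodes the type II partner of keratin 18, did not pass the threshold in any comparison. Young WT 1, 2, 3, 4 and 6 had 129.3, 147.5, 104.9, 139.1 and 140.8 CPM of Krt8. In old WT 1, 4, 5, 7 and 10 it was at 91.5, 127.4, 129.5, 109.8 and 90.9 CPM. Only 2 old WT livers, 1 and 10, were below the young range. Old KO 1, 2, 4, 5 and 6 had 157.3, 118.8, 135.6, 145.9 and 94.7 CPM, with old KO 1 above and old KO 6 below every young WT liver. The log2 fold changes of Krt8 were -0.27 with age (SE 0.141, 95% interval -0.57 to 0.03, adjusted p 0.196), 0.25 with genotype (SE 0.141, 95% interval -0.05 to 0.55, adjusted p 0.527) and -0.02 in old KO against young WT (SE 0.141, 95% interval -0.32 to 0.28, adjusted p 0.932). The intervals leave room for a fall with age of up to 0.57 on the log2 scale.

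The ratio of Krt18 to Krt8 counts compares both chains of the pair within a library and does not depend on how libraries are scaled. It was examined after the values above had been seen. For young WT 1, 2, 3, 4 and 6 the ratio was 1.01, 1.29, 1.03, 1.04 and 1.04. Old WT 1, 4, 5, 7 and 10 had ratios of 0.827, 0.758, 0.827, 0.953 and 1.04. In old KO 1, 2, 4, 5 and 6 it was 0.790, 0.784, 0.822, 0.726 and 0.869. Every old KO liver was below every young WT liver, and among the old WT livers only number 10 reached the young range. The mean ratio was 1.08 ± 0.114 in young WT, 0.880 ± 0.113 in old WT and 0.798 ± 0.0527 in old KO (SD, n = 5 each). On the log2 scale the difference was -0.30 with age (exact permutation p 0.0238, adjusted over 3 comparisons 0.0357, lower in 4 of 5 old WT livers than in any young WT liver). It was -0.44 in old KO against young WT (exact permutation p 0.00794, adjusted 0.0238) and -0.13 in old KO against old WT (exact permutation p 0.198), which did not pass. Leaving out each liver in turn gave -0.47 to -0.37 for old KO against young WT, and this difference passed after adjustment in all 10 cases (exact permutation, adjusted p 0.0357 to 0.0476). With age the values were -0.36 to -0.24 and passed after adjustment in 3 of 10 cases, without old WT 10, young WT 1 or young WT 3, whereas the adjusted exact p was 0.0714 in the other 7. Because reads of Krt8 can be lost to the copy on chromosome 7, the ratio's absolute value is uncertain.

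**Figure D2:**
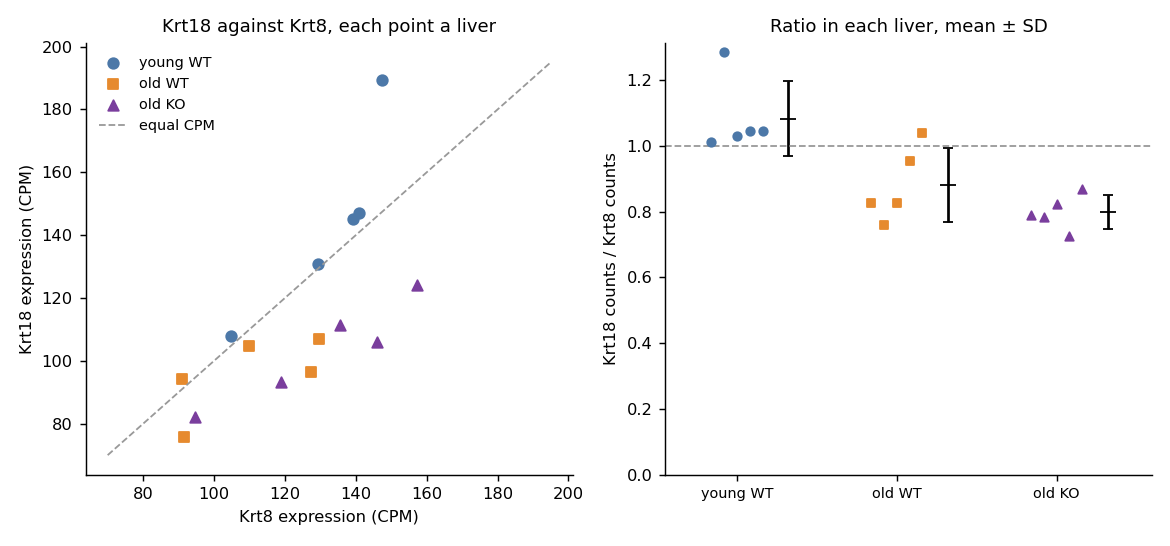
Left, Krt18 against Krt8 expression (both axes in CPM), 1 point a liver, with a dashed line of equal values. Right, Krt18 counts divided by Krt8 counts per liver (vertical axis, no unit, from 0) with mean ± SD (n = 5). The young WT livers lie on or above the dashed line, and the old KO livers all lie below it, with ratios of 0.726 to 0.869.

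The duct keratins Krt7 and Krt19 were low, and their groups overlapped. Krt7 was at 0.527, 0.947, 0.619, 0.573 and 0.517 CPM in young WT 1, 2, 3, 4 and 6. Old WT 1, 4, 5, 7 and 10 had 0.844, 0.996, 1.16, 1.17 and 0.478 CPM. In old KO 1, 2, 4, 5 and 6 it was 1.09, 0.835, 1.46, 1.01 and 0.371 CPM. Of each old group, 3 livers were above the whole young range and 1 was below it, these low livers being old WT 10 and old KO 6. The log2 fold change of Krt7 was 0.54 with age (SE 0.315, 95% interval -0.12 to 1.21, adjusted p 0.241), 0.03 with genotype (95% interval -0.62 to 0.69, adjusted p 0.989) and 0.58 in old KO against young WT (95% interval -0.10 to 1.25, adjusted p 0.204). None passed the threshold.

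Krt19, the type I keratin of duct cells, was at 0.632, 1.01, 0.782, 1.12 and 0.690 CPM in young WT 1, 2, 3, 4 and 6. The old WT livers 1, 4, 5, 7 and 10 had 0.312, 0.534, 1.76, 1.72 and 0.625 CPM of it. In old KO 1, 2, 4, 5 and 6 its expression was 2.81, 1.09, 1.29, 1.93 and 0.418 CPM. The old WT livers thus split, 2 above and 3 below all young WT livers, and the old KO livers spanned the lowest to the highest part of the scale. The SD was 0.208 CPM in young WT, 0.694 CPM in old WT and 0.906 CPM in old KO (n = 5 each). With age the log2 fold change was 0.23 (SE 0.478, 95% interval -0.79 to 1.24, adjusted p 0.774), and it turned to -0.04 without old WT 7 and to -0.10 without old WT 5. It was 0.61 with genotype (95% interval -0.38 to 1.60, adjusted p 0.671) and 0.84 in old KO against young WT (95% interval -0.16 to 1.83, adjusted p 0.212).

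Of the 5 keratin members, Krt23 had the lowest mean in old KO livers relative to both WT groups, without passing the threshold over all genes. Young WT 1, 2, 3, 4 and 6 had 2.58, 1.95, 2.54, 2.44 and 5.65 CPM. For old WT 1, 4, 5, 7 and 10 the values were 6.62, 2.28, 2.06, 4.03 and 0.625 CPM, from the highest to the lowest value of all 15 livers. In old KO 1, 2, 4, 5 and 6 it was 1.76, 1.63, 2.36, 1.05 and 0.743 CPM. Of these, 4 were below every young WT liver, while all 5 were within the old WT range. The log2 fold change in old KO was -1.05 against old WT (SE 0.478, 95% interval -2.06 to -0.03, unadjusted p 0.0435 in the edgeR fit, adjusted p 0.412) and -0.98 against young WT (SE 0.479, 95% interval -1.998 to 0.03, adjusted p 0.148). The exact permutation p, unadjusted, was 0.254 and 0.0159 for these comparisons (n = 5 each). With age the difference was 0.06 (95% interval -0.90 to 1.02, adjusted p 0.943). No member was called between old KO and old WT, 0 higher and 0 lower in edgeR, where 0.112% of all genes were higher and 0.421% lower. Krt23 was the 1 member of 8 with an unadjusted edgeR p under 0.05, where 1661 of all 14258 genes tested had such a p. DESeq2 and limma voom also called 0 members.

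Epcam, which encodes an adhesion molecule of duct cells that hepatocytes lack, had a narrow range in young WT and a wide range at old age. Young WT 1, 2, 3, 4 and 6 had 1.24, 1.65, 1.43, 1.54 and 1.12 CPM. The old WT livers 1, 4, 5, 7 and 10 were at 2.06, 1.56, 2.80, 3.96 and 0.772 CPM. In old KO 1, 2, 4, 5 and 6 it was 3.03, 1.27, 3.04, 2.01 and 1.16 CPM. In each old group 3 livers exceeded all young WT livers, and old WT 10 was the lowest of all. The log2 fold change was 0.67 with age (SE 0.358, 95% interval -0.08 to 1.43, adjusted p 0.201), -0.09 with genotype (95% interval -0.83 to 0.66, adjusted p 0.962) and 0.59 in old KO against young WT (95% interval -0.18 to 1.35, adjusted p 0.253).

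Sox9, the transcription factor of duct and progenitor cells, depended on a single liver in old WT. Young WT 1, 2, 3, 4 and 6 had 5.95, 4.58, 2.74, 4.28 and 1.51 CPM of Sox9. In old WT 1, 4, 5, 7 and 10 it was 3.12, 3.38, 4.23, 13.8 and 1.65 CPM. Old KO 1, 2, 4, 5 and 6 had 7.94, 3.78, 5.87, 5.87 and 3.43 CPM. Apart from old WT 7, only old KO 1 was above the young WT range. The change with age was 0.44 on the log2 scale (SE 0.467, 95% interval -0.55 to 1.43, adjusted p 0.540) and was -0.30 without old WT 7. With genotype it was 0.04 (95% interval -0.94 to 1.03, adjusted p 0.990), and 0.79 without old WT 7. In old KO against young WT it was 0.48 (95% interval -0.51 to 1.48, adjusted p 0.484).

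Cftr, the chloride channel of the duct surface, was the least abundant member, with 10 counts or more in 6 of the 15 libraries. It was at 0.0790, 0.366, 0.196, 0.0904 and 0.302 CPM in young WT 1, 2, 3, 4 and 6. Old WT 1, 4, 5, 7 and 10 had 0.125, 0.356, 0.149, 0.476 and 0.257 CPM. Old KO 1, 2, 4, 5 and 6 had 0.711, 0.109, 0.557, 0.419 and 0.186 CPM. Only old WT 7 and the old KO livers 1, 4 and 5 were above the young range. The log2 fold changes were 0.41 with age (95% interval -0.76 to 1.58, adjusted p 0.639), 0.56 with genotype (95% interval -0.53 to 1.66, adjusted p 0.746) and 0.97 in old KO against young WT (SE 0.535, 95% interval -0.16 to 2.11, adjusted p 0.200). A rise with age of up to 1.58 on the log2 scale lies inside the interval, and what size of change could be detected was not tested.

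**Figure D3:**
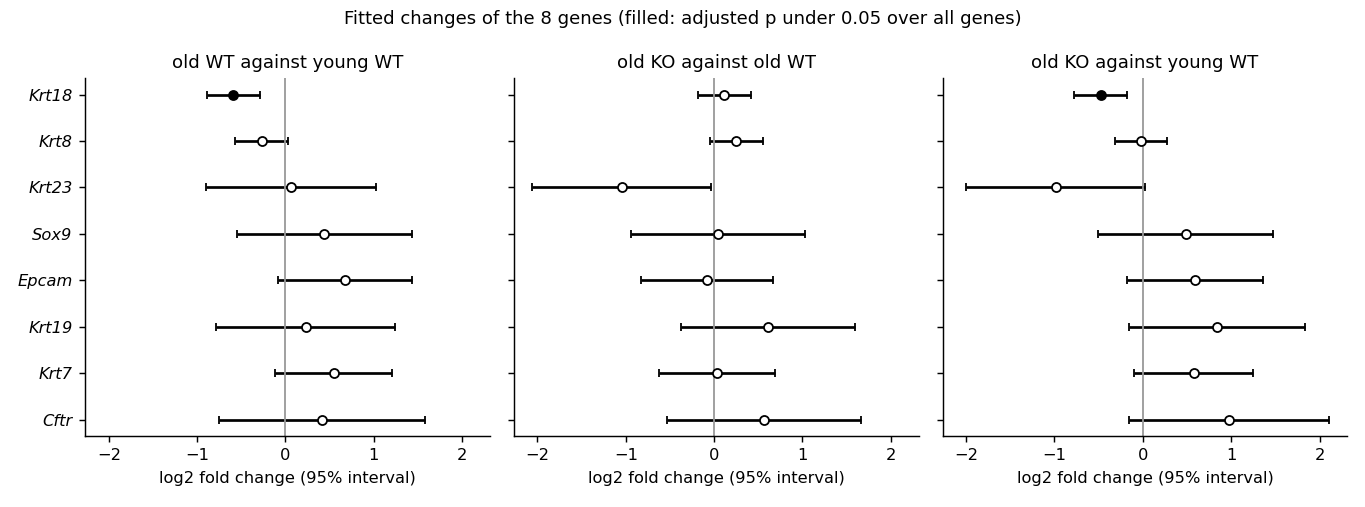
Fitted log2 fold change (horizontal axis) of each gene with its 95% interval in the 3 comparisons, filled where the adjusted p over all genes tested is under 0.05. Krt18 is filled with age (-0.59) and in old KO against young WT (-0.48), and no gene is filled between old KO and old WT.

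Over the 8 members together, the median log2 fold change was 0.32 with age, 0.08 with genotype and 0.53 in old KO against young WT, where the medians over all genes tested were 0.01, 0.00 and -0.01. In old KO against old WT no member's groups were apart, which was so for 3.20% of all genes, and in old KO against young WT likewise none, which was so for 13.9%. Intervals of Krt8 and Krt18 were 0.597 to 0.601 wide on the log2 scale, and those of the other members 1.31 to 2.33.

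Several of the low members varied together from liver to liver. Among the 28 pairs of members, Pearson's r of log2(CPM + 0.1) over 15 livers was positive for 26, and 6 pairs passed the threshold after Benjamini-Hochberg adjustment, 2 of them also by Spearman's rho. These shares were not computed for pairs of other genes, so whether they are particular to the members was not tested. The permutations shuffled all 15 livers across the groups, so that differences between groups enter their p-values. Krt7 and Epcam gave r 0.85 (permutation p 8e-05, adjusted 0.00224) and rho 0.94 (permutation p 1e-05, the smallest the 100000 resamples can give, adjusted 0.00028). Their r was 0.84 without the 2 livers of most extreme Krt7 and 0.82 on deviations from the group means. Krt8 and Krt18, the hepatocyte pair, gave r 0.74 (permutation p 0.0012, adjusted 0.0112) and rho 0.77 (permutation p 0.00113, adjusted 0.0158), with 0.67 without the 2 most extreme livers and 0.83 within groups. Epcam and Sox9 gave r 0.79 (adjusted permutation p 0.00476), rho 0.65 (adjusted permutation p 0.0528), 0.60 without the 2 extremes and 0.79 within groups. Krt19 correlated with Krt8, Epcam and Sox9 at r 0.63 to 0.65 (adjusted permutation p 0.0487 each), and for these pairs rho did not pass. None of the pairs with Krt23 passed, and its r with the other members lay between -0.13 (Krt19) and 0.35 (Epcam). Within groups, r of Krt23 was 0.57 with Epcam, 0.47 with Krt7 and 0.046 with Krt19.

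**Figure D4:**
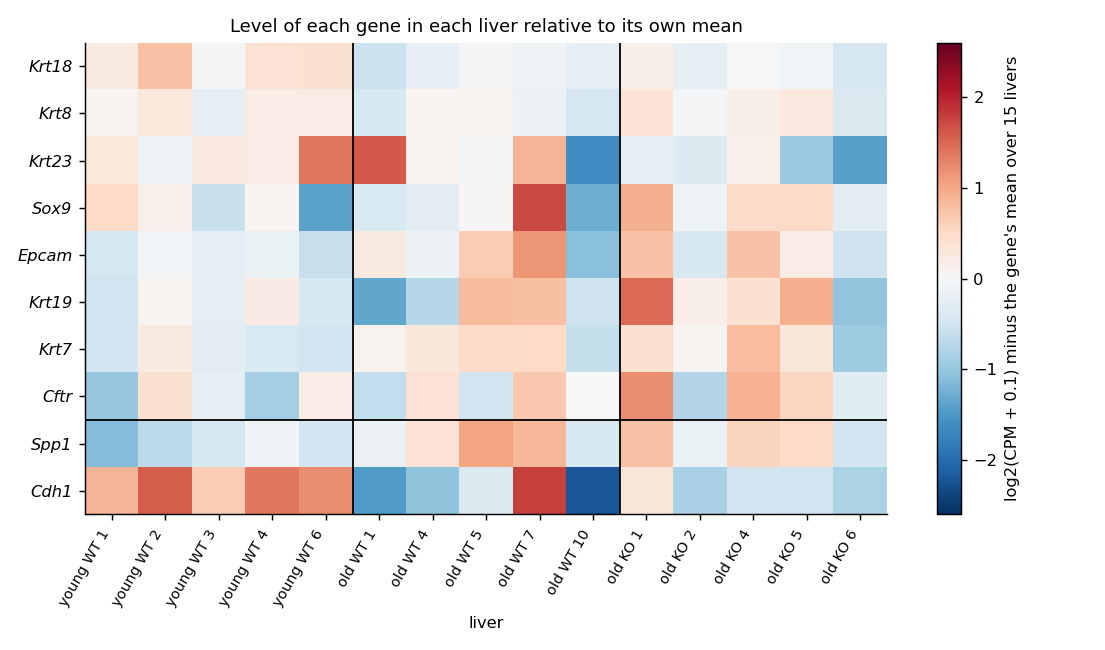
Colour shows log2(CPM + 0.1) of each gene (rows) in each of the 15 livers (columns) minus the gene's mean over all livers, with lines between groups and between the 8 members and 2 further duct genes. Old WT 7 is red and old WT 10 and old KO 6 are blue over most duct genes, while Cdh1 is red in young WT and in old WT 7.

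Single livers set these extremes. Old WT 7 had the highest Epcam and Sox9 of all 15 livers, and old KO 1 the highest Krt8, Krt19 and Cftr. The lowest Krt8, Krt23 and Epcam were those of old WT 10, the lowest Krt7 that of old KO 6, and the lowest Krt18 and Krt19 those of old WT 1, which had the highest Krt23. Mesothelial cells, which cover the liver, are known to make keratins of simple epithelia as well. The sum of the 8 mesothelial markers was 3.44 to 7.42 CPM in young WT, 7.61 to 13.6 CPM in old WT and 3.16 to 16.2 CPM in old KO livers. Its lowest value was that of old KO 6, where Msln, a defining marker, had a level of 0.0464 CPM and Upk3b was at 0. Of the 6 mesothelial genes tested, 1 rose and 0 fell with age, where 9.92% of all genes tested rose and 8.91% fell. This was Lrrn4 (2.13, edgeR adjusted p 0.000242), while Msln was at 0.19 (adjusted p 0.824). The part of these cells in the levels of Krt7 and Krt19 was not tested.

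Several other genes listed for the bile duct rose with age. Of a list of 31 cholangiocyte genes, 26 were tested, of which 7 rose and 0 fell with age, against 9.92% and 8.91% of all genes tested. The median log2 fold change of the 26 was 0.53, where that of all genes was 0.01. Of the 7, Alcam, Anxa4 and Spp1 had young WT means of 43.4, 41.6 and 32.2 CPM, far above the 1.40 CPM of Epcam. Slc10a2, Prom1, Tspan8 and Muc1 had 3.25, 1.21, 0.853 and 0.414 CPM. The part of duct cells in the levels and rises of these genes was not tested. The largest was that of Prom1, which encodes the progenitor surface protein prominin 1, from 1.21 ± 0.196 to 8.34 ± 3.17 CPM (SD, n = 5), with log2 fold change 2.79 (SE 0.482, adjusted p 0.00156). Prom1 was at 1.01 to 1.44 CPM in young WT and at 3.71 to 12.2 CPM in old WT, with no overlap. In old KO livers it lay between 2.23 and 18.0 CPM, also above every young WT liver.

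Slc10a2, the apical bile acid transporter of cholangiocytes, rose from 3.25 ± 1.15 to 7.20 ± 1.71 CPM (SD, n = 5 each, log2 fold change 1.14, adjusted p 0.00636). In old KO it was at 3.51 ± 1.02 CPM, with no overlap with old WT, and this difference (-1.04 on the log2 scale, adjusted p 0.0798) did not pass in edgeR and passed in DESeq2. Anxa4, an annexin, rose by 0.42 (adjusted p 0.00427) with no overlap between the age groups. These 3 genes kept their calls in all 10 fits that left out 1 liver.

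Spp1, which encodes osteopontin, was at 21.4 to 43.5 CPM in young WT, 35.2 to 95.2 CPM in old WT and 33.1 to 79.8 CPM in old KO. The groups overlapped, and the highest values were those of old WT 5 and old WT 7. It rose with age by 0.98 (SE 0.286, adjusted p 0.0262), and the call was lost without young WT 1 (0.86), young WT 2 (0.94), old WT 5 (0.79) or old WT 7 (0.86). The rises of Tspan8 (1.56, adjusted p 0.0372), Muc1 (1.42, adjusted p 0.0477) and Alcam (0.53, adjusted p 0.0384) also overlapped with young WT, and passed in 4, 2 and 3 of the 10 fits that left out 1 liver. Tspan8 was 0.99, Muc1 1.13 and Alcam 0.40 without old WT 7.

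Cdh1, which encodes E-cadherin of both duct cells and hepatocytes, was low in most old livers. Young WT 1, 2, 3, 4 and 6 had 24.6, 39.8, 21.0, 34.9 and 31.0 CPM. In old WT 1, 4, 5, 7 and 10 it was 4.75, 6.44, 10.2, 45.9 and 2.79 CPM. Old KO 1, 2, 4, 5 and 6 had 16.7, 7.37, 9.42, 9.35 and 7.52 CPM. All old KO livers and 4 of 5 old WT livers were below every young WT liver, while old WT 7 was above all of them. The log2 fold change with age was -1.11 (SE 0.548, adjusted p 0.168), and -2.31 (adjusted p 0.000485) without old WT 7. In limma voom it was -1.83 with age (adjusted p 0.0121). The fall with age passed in 1 of the 10 fits that left out 1 liver and in 3 of the 8 other alternatives. In old KO against young WT it was -1.58 (SE 0.559, adjusted p 0.0508 in edgeR) with no overlap. There the fall passed in DESeq2 (adjusted p 0.0457) and limma voom (adjusted p 0.0212), and in 6 of the 8 alternatives besides those leaving out 1 liver (adjusted p 0.00139 to 0.0510 over the 8). Of the 10 edgeR fits of this comparison that left out 1 liver, however, only 1 passed (adjusted p 0.0464 to 0.0986).

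**Figure D5:**
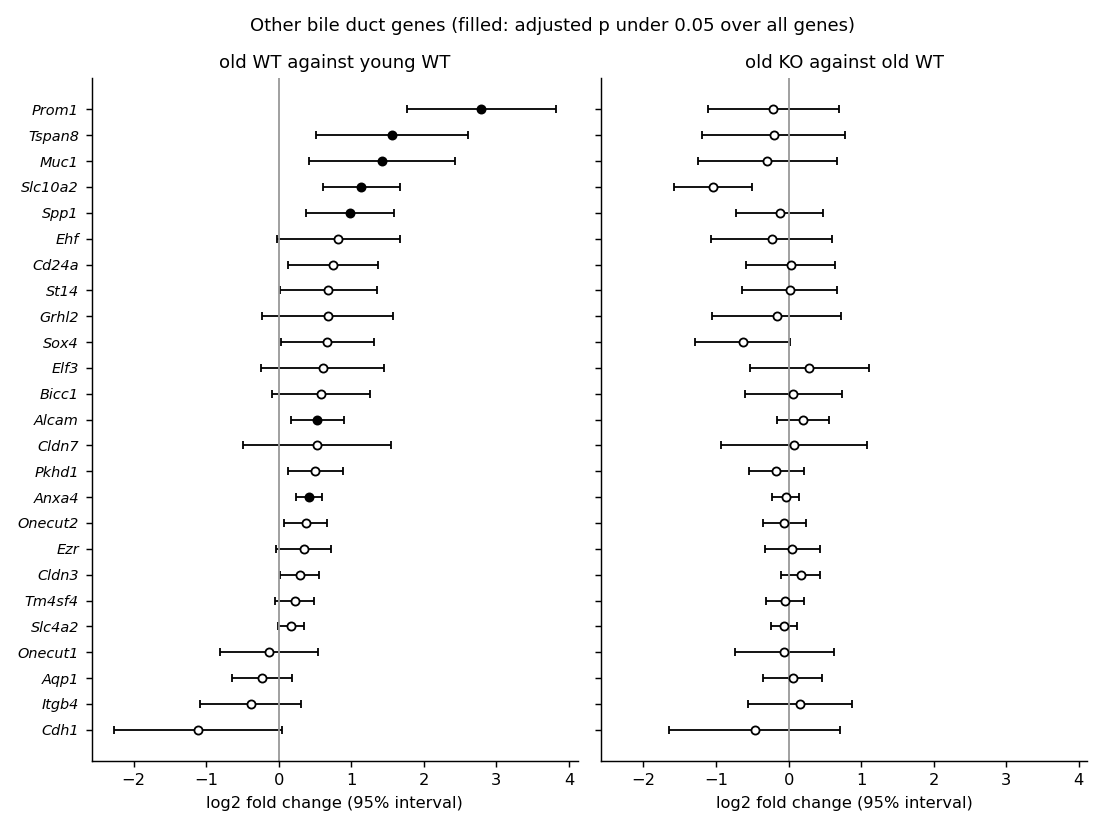
Fitted log2 fold change (horizontal axis) with 95% interval of tested cholangiocyte genes other than the members, ordered by the change with age, filled where the adjusted p over all genes is under 0.05. With age 7 genes are filled, all to the right of 0, and between old KO and old WT none is.

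Between old KO and old WT, 0 of the 26 list genes passed in edgeR (median -0.05), with 1 at an unadjusted p under 0.05 (Slc10a2), 1 in DESeq2 and 0 in limma voom. In old KO against young WT 5 rose and 0 fell in edgeR (median 0.43), against 12.0% and 11.3% of all genes, with Cdh1 just short of the threshold. These were Prom1 (2.58), Spp1 (0.86), Alcam (0.73), Cldn3, a tight junction claudin (0.46), and Anxa4 (0.38). Spp1 (edgeR adjusted p 0.0399) overlapped with young WT and passed in 3 of the 10 fits of this comparison that left out 1 liver. Prom1, Alcam, Cldn3 and Anxa4 passed in all 10.

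Among partners of the keratins, linkers and desmosome genes included 3 of 10 that rose with age and 0 that fell, where 9.92% of all genes tested rose and 8.91% fell. Evpl (envoplakin) rose by 1.56 (adjusted p 0.00237), Pkp3 (plakophilin 3) by 1.31 (adjusted p 0.00548) and Dsc2 (desmocollin 2) by 0.44 (adjusted p 0.0376). Evpl and Pkp3 were low, with young WT means of 0.494 and 0.773 CPM and old WT means of 1.49 and 1.92 CPM. The more abundant Dsp (0.12, adjusted p 0.453), Jup (0.11, adjusted p 0.450), Pkp2 (0.15, adjusted p 0.355) and Dsg2 (0.28, adjusted p 0.0559) did not pass with age. Plec, which encodes plectin, a linker of keratin filaments to the cell edge, had a log2 fold change of -0.18 (adjusted p 0.377). Between old KO and old WT 0 of the 10 passed in edgeR, DESeq2 or limma voom, and 0 had an unadjusted p under 0.05. Of 14 further keratin genes, which belong mainly to skin and stratified epithelia, only Krt10, Krt79 and Krt80 passed the filter on low counts. In edgeR 0 of these 3 were called in any comparison, while DESeq2 called Krt79, also the only 1 with an unadjusted p under 0.05, in old KO against young WT. Another 6 of the 14 had 0 counts in every library, and Krt4 had 4 counts in all.

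Of 13 Notch and Hippo genes that act in duct fate, 2 fell and 0 rose with age, where 8.91% of all genes tested fell and 9.92% rose. Tead1, a DNA-binding partner of YAP, fell from a mean of 25.6 ± 12.9 CPM to 8.40 ± 1.49 CPM (SD, n = 5, log2 fold change -1.61, adjusted p 0.00194), and Yap1 fell by 0.22 on the log2 scale (adjusted p 0.0323), both with no overlap. Tead1 had 2 identifiers among the genes counted, and its values are those of the 1 with the longer exon length. The Notch ligand gene Jag1, known for its part in duct formation, was at -0.08 with age (adjusted p 0.772) and 0.01 with genotype (adjusted p 0.996). With genotype 0 of the 13 passed in edgeR, DESeq2 or limma voom, and 0 had an unadjusted p under 0.05.

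Markers of other cells moved in these libraries as well, where 9.92% of all genes tested rose and 8.91% fell with age and 0.421% fell with genotype. Of 10 hepatocyte markers, 2 fell with age (Cps1 by 1.27 and Apoa1 by 0.69 on the log2 scale) and 1 rose (Tf, 0.62), while Alb was at -0.08 (adjusted p 0.789). Tf also had 2 identifiers, and its value is that of the 1 with the longer exon length. Of 7 leukocyte and macrophage markers, 1 rose with age, and 3 fell between old WT and old KO in edgeR (Cd5l by 1.47, Clec4f by 1.26 and Cd68 by 1.18). With genotype DESeq2 called 4 of the 7 and limma voom 1. The sum of these 7 markers was 135 to 352 CPM in old WT and 79.9 to 117 CPM in old KO. With age 2 of 6 endothelial markers fell (Lyve1 by 0.94 and Stab2 by 0.56), and of 9 stellate and fibroblast markers 1 rose (Col3a1, 1.01) and 1 fell (Reln, by 0.57). The sum of the 7 intestinal markers was 113 to 182 CPM in young WT, 66.6 to 153 CPM in old WT and 43.1 to 124 CPM in old KO, mainly from Fabp2 (29.5 to 142.7 CPM over all livers) and Lgals4 (13.1 to 49.0 CPM), while 2 of them, the defining intestinal factors Cdx1 and Cdx2, had 0 counts in every library. Of the 3 intestinal genes tested, 0 passed with age in edgeR, with 1 at an unadjusted p under 0.05 and 1 each in DESeq2 and limma voom. The sum of the 8 pancreas markers was 3.74 to 5.70 CPM in young WT, 4.36 to 5.19 CPM in old WT and 5.27 to 6.39 CPM in old KO, mainly from Cela1 (3.66 to 6.28 CPM), and 4 of them (Prss1, Cpa1, Pnlip and Cel) had 0 counts in every library. The part of these cell types in the change of Krt18 was not tested.

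Among the genes whose pattern was most like that of Krt18 over the 15 livers, of 12125 genes with a mean of at least 1 CPM, were Polr3f (r 0.91) and Acin1 (r 0.85), which encode an RNA polymerase III subunit and an RNA-binding protein. On deviations from group means their r was 0.77 and 0.71. Mean expression of Polr3f was 19.1 ± 0.958 CPM in young WT, 16.9 ± 0.641 CPM in old WT and 17.3 ± 0.642 CPM in old KO (SD, n = 5 each). The order of groups is that of Krt18, which follows largely from picking Polr3f by its r with Krt18 over the same livers. No chance level for the highest r among 12125 genes was computed.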

How the data were processed

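RNA sequencing of mouse liver gave 15 libraries, 5 a group, with groups and replicate numbers read from the sample titles. The authors prepared stranded poly(A) libraries, sequenced single-end 50-base reads, aligned them with TopHat2 2.0.11 on mm9 and used HTSeq for counting. What was deposited are raw counts per gene, neither normalized nor pooled. The annotation and strand setting of the counting were not given in the sources used here. The authors' own tests used DESeq2 1.18.1.

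Counts were fitted in edgeR 4.0.16 (R 4.3.3; TMM, filterByExpr, glmQLFit and glmQLFTest on all 15 libraries), with Benjamini-Hochberg adjustment over 14258 genes and a threshold of 0.05. Standard errors and intervals come with each fitted log2 fold change. CPM are counts scaled to 1000000 by the TMM-scaled library size. Exact 2-sided permutation tests used log2(CPM + 0.1) over 252 assignments. The fit was also run on simulated counts, in which every change made was larger than that of Krt18 with age. That run therefore did not test changes of the size of Krt18. Alternatives were DESeq2 1.42.0, limma 3.58.1 (voom), RLE factors, other filters, the contrast's libraries alone, the replicate number as a block and leaving out each library, and, chosen after seeing the data, the Krt18 to Krt8 ratio and a fit without old WT 7 and old KO 6. No member failed the filter. Positions came from GENCODE M1 on NCBIM37 (37205 identifiers placed). By the study, the number in a group counts individual mice.

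The rule named all members, the bile duct list genes past the threshold with Spp1 and Cdh1, at most 3 genes and the first gene of each other list, and the 3 genes most like a called member of at least 1 CPM. Of the genes that the rule names, 2 are not reported here. Other genes were chosen after their values were seen. The members and lists were chosen with earlier results of these data known.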

Additional observations from a re-analysis of the deposited data

Results flagged for a closer look

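In 27 groups of 5 livers, 8 genes and the Krt18 to Krt8 ratio in each of the 3 groups, a liver was marked where its gap to the nearest other liver was large for the group's range (Dixon's test at 95%). Chance marks about 1 in 20 groups, and 4 were marked here. Krt7 was at 0.947 CPM in young WT 2, above the other young WT livers. Krt23 reached 5.65 CPM in young WT 6. Sox9 reached 13.8 CPM in old WT 7. The Krt18 to Krt8 ratio was 1.29 in young WT 2, and the differences of this ratio that passed the exact test had an unadjusted exact p under 0.05 without that liver as well, although the difference with age did not pass after adjustment (adjusted exact p 0.0714).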

How the results depend on the processing

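Krt18 kept its fall with age in all 8 alternatives other than leaving out 1 liver (-0.80 with the replicate block to -0.58 with limma voom) and in all 10 that left out 1 liver (-0.67 to -0.47). The deviations of same-numbered libraries from their group means correlated at only -0.153 to 0.077. The labels do not say whether libraries of the same number shared a litter or a batch. Young WT 3, old WT 7 and old WT 10 share their number with no other library, so they carry no weight in a comparison with the block. With the replicate block the bile duct genes changed with age numbered 2 instead of 7, namely Prom1 and, as a fall, Cdh1 (-2.42, adjusted p 0.0156), so that 1 of the 7 rises kept its call. With that block the estimates turned to -0.86 for Krt19, -0.52 for Sox9 and -0.069 for Cftr with age, and to 0.18 for Epcam, 0.10 for Spp1 and 0.63 for Cdh1 with genotype. Leaving out 1 liver gave 3 to 9 bile duct genes with age and 0 to 1 members in old KO against young WT. DESeq2 called 1 bile duct gene with genotype where edgeR called 0. With limma voom the sign turned for Krt19 (-0.049) and Krt23 (-0.16) with age and for Krt7 (-0.0146) and Cdh1 (0.22) with genotype. Without old WT 7 and old KO 6, Krt18 in old KO against young WT lost its call, leaving 0 members, and the sign turned for Krt19 (-0.061), Krt23 (-0.051) and Sox9 (-0.32) with age, for Epcam (0.37), Spp1 (0.15) and Cdh1 (0.82) with genotype, and for Krt8 in old KO against young WT (0.068). Estimates that changed sign when 1 liver was left out ranged, with age, from -0.10 to 0.46 for Krt19, -0.42 to 0.40 for Krt23 and -0.30 to 0.67 for Sox9. With genotype these ranges were -0.17 to 0.23 for Krt7, -0.30 to 0.21 for Epcam, -0.18 to 0.79 for Sox9, -0.28 to 0.068 for Spp1 and -0.73 to 0.72 for Cdh1, and for Krt8 in old KO against young WT -0.096 to 0.076. None of the estimates that changed sign passed the threshold in any of these fits, and the cause of the changes was not tested. The test with other pseudocounts, meant for members failing the filter, was not run because none failed. At 3 to 19 counts of Cftr per library, its intervals were 2.19 to 2.33 wide on the log2 scale.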
